A study of Mus musculus with 16 samples.

Results

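Cytochrome P450 (Cyp) genes encode heme enzymes that insert 1 atom of molecular oxygen into fats, steroids, bile acids, retinoids, drugs and other foreign compounds. The members described here are the genes whose probe set carries a single symbol made of Cyp and a digit, without Cyp51, the sterol demethylase of cholesterol synthesis. With 1 probe set per gene, the one with the highest mean signal, they are 39 of the 8252 genes that have a probe set of their own on the array. The rule found 46 probe sets, and 7 more that list a Cyp gene beside other genes were left out. Grouped by family or subfamily, 22 members were placed with the enzymes of foreign compounds and 8 with those of fatty acids and eicosanoids. Bile acids and cholesterol, retinoids or vitamin D, and steroid hormones have 3 each. Single members can have other substrates, such as Cyp2c70, Cyp2d9 and Cyp2a12 in the first group, described below.

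Most P450 enzymes sit in the endoplasmic reticulum and take electrons from P450 oxidoreductase, while a few sit in mitochondria and use ferredoxin. The liver is the main site of drug and bile acid metabolism, and hepatocytes switch on their P450 genes under HNF4alpha, C/EBP factors and ligand-activated receptors such as CAR, PXR, PPARalpha, FXR and the aryl hydrocarbon receptor. Embryonic stem (ES) cells are the cultured pluripotent cells of the early embryo and have no such metabolic role.

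RNA of 16 mouse samples in 6 groups was hybridised to U74Av2 arrays, 1 array per sample. The ES samples were 4 groups of 3: a line heterozygous for Abca1, a cholesterol and phospholipid exporter (Abca1 +/-); its +/+ parental line ESVJ; a line heterozygous for the cell cycle kinase Cdk4 (Cdk4 +/-); and the +/+ line E14 that served as its control. Abca1 +/- and ESVJ cells grew on irradiated fibroblast feeders, were depleted of them and spent about 2 days on gelatin before Trizol and RNeasy extraction; E14 and Cdk4 +/- cells grew without feeders and went through RNeasy alone. The livers were 2 groups of 2, from +/+ mice and from mice labelled Abca1 +/-, all from a 129/SvJ by C57BL6/J mixed stock. The labels do not give the type of the mutant alleles, the sex, age or feeding of the mice, or whether the arrays of a group stem from different cultures or animals kept apart; a p here thus reflects the spread among these arrays, which may be technical. Replicate numbers below are names only.

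Signals are MAS5 intensities rescaled to a trimmed mean of 500 per array, which put the array medians at 126 to 170. All 7 hepatocyte markers measured passed as higher in liver, 6 of them with ES means under 100, and all 8 ES markers as lower. The brighter Abca1 probe set read 327 and 301 in the +/+ livers and 699 and 555 in those labelled Abca1 +/-, while the dimmer one read 295 and 140 against 41.5 and 161. The probe sets thus disagree, the first goes against the label, and where they lie relative to the mutated part is not given in the sources used here, so these livers are called by their label throughout. In ES cells the brighter Abca1 probe set read 94, 115 and 123 in Abca1 +/- cells and 178, 144 and 102 in ESVJ. The dimmer one read 92.8, 65.4 and 132 against 126, 91.6 and 113, so in both the lines overlapped. Cdk4 was 5822, 5498 and 5827 in E14 and 3448, 3854 and 3731 in Cdk4 +/- cells. The first liver labelled Abca1 +/- stood apart: its 3' to 5' signal ratio was 4.1 for Gapdh and 8.23 for Actb, against at most 1.13 and 2.14 in the other 3 livers, and its signal for Saa2, an acute phase protein, was 51423 against at most 1352. The separation of tissues, the 2-fold spread between livers and the calls of P450 genes by the Abca1 label are given with and without it. Other counts over the livers, and the values of the listed genes, include it. The part of RNA quality or of an acute phase state in these results was not tested.

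Promoter sequence was taken from the RefSeq table of GRCm38.p6, 250 bases before to 50 after each gene's start, which held 31 of the 39 members. A promoter motif bound by HNF4-type receptors, CAAAGTCCA on either strand, occurred in 4 of these 31 (12.9%) and in 0.475% of all 32851 promoters. The 4 stretches are shown because these liver enzymes carry the same letters within 109 bases before their start, Cyp2c70, Cyp3a11, Cyp3a16 and the bile acid enzyme Cyp8b1. Capitals mark the motif, and all read 5' to 3' on the minus strand, at chr19:40187312-40187380 for Cyp2c70, chr5:145879925-145879993 for Cyp3a11, chr5:145469784-145469852 for Cyp3a16 and chr9:121916334-121916402 for Cyp8b1.
Cyp2c70: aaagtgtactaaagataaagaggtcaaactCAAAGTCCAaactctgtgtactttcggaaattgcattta
Cyp3a11: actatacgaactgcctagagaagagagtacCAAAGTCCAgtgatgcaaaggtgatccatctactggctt
Cyp3a16: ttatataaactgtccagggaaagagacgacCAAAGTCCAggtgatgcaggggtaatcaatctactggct
Cyp8b1: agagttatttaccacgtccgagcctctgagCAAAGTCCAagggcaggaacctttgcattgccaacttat
The motif begins 64, 109, 99 and 67 bases before the start of these genes in that order. Cyp3a11 and Cyp3a16 are near neighbours on chromosome 5 with similar sequence, so their matches are not independent, and a match describes the letters and not a site in use. In the same windows the TATA box letters TATAAA were found in 16 of 31 members (51.6%) and in 13.6% of all promoters, again on either strand. These matches ran from 234 bases before the start (Cyp3a11) to past it (Cyp26a1), so the count is of letters only. The C/EBP-type letters TTGCNNAA were in 6 members (19.4%, against 10.8%): Cyp11a1, Cyp2b10, Cyp2b13, Cyp2b19, Cyp2b9 and Cyp3a25. The Cyp2b genes among them lie in 1 cluster on chromosome 7, so their matches are not independent either. Cyp11a1, Cyp2b9, Cyp2b13 and Cyp2b19 had mean signals under 100 in liver and in ES cells. The E-box letters CACGTG were in 2 members (6.45%, against 7.15%) and the D-box letters TTANGTAA in 1 (3.23%, against 2.32%). A member counted if any of its promoters matched, while the shares of all promoters count each promoter.

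The promoter of Cyp26a1, the enzyme that breaks down retinoic acid, is shown for the direct repeat by which retinoic acid receptors are known to act on it. Searched on either strand as 2 copies of AGTTCA with any 5 bases between them, it was found in 1 of 31 members and in 0.0244% of all promoters. The capitals mark it, 32 bases before the start, in the plus strand of chr19:37697558-37697807.
Cyp26a1: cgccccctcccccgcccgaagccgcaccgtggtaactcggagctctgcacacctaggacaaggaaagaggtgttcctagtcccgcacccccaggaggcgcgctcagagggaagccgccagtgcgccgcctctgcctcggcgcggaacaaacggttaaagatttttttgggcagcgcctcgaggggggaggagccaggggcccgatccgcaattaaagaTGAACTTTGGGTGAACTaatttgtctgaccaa

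Cyp1b1, which oxidises estrogens and polycyclic hydrocarbons, and Cyp2s1, an enzyme of epithelia outside the liver, are shown because they are the members that passed as lower in +/+ liver than in the mean of both +/+ ES lines, a difference that for Cyp1b1 changed sign against ESVJ alone. Capitals mark the CG dinucleotides in the 250 bases before each start, 12 in Cyp1b1 (minus strand of chr17:79715062-79715311) and 15 in Cyp2s1 (minus strand of chr7:25816526-25816775).
Cyp1b1: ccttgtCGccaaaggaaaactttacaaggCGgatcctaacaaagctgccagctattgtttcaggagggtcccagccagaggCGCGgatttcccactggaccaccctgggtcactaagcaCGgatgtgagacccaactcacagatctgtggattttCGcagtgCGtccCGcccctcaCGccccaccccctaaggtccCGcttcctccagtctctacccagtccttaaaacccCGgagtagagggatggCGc
Cyp2s1: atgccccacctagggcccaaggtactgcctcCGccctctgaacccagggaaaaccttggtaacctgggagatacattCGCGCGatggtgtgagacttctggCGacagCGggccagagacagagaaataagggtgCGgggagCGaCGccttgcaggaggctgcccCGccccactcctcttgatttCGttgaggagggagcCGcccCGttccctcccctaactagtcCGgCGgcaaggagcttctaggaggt
Over the whole 300 bases, the ratio of CG dinucleotides observed to those expected from the C and G content was 0.64 in Cyp1b1 and 0.57 in Cyp2s1. The 31 members had a median of 0.17, against 0.38 over all promoters, and 4 of them lay above that median: Cyp2s1, Cyp1b1, Cyp4v3 at 0.76 and Cyp26a1 at 0.89. Of the 20 members with a promoter that were called higher in liver, Cyp4v3 alone lay above it. The other 8 members with a promoter and no test against ES cells lay between 0.06 and 0.31. These ratios are a description over genes, several of which are neighbouring copies of each other, and carry no test.

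**Figure D1:**
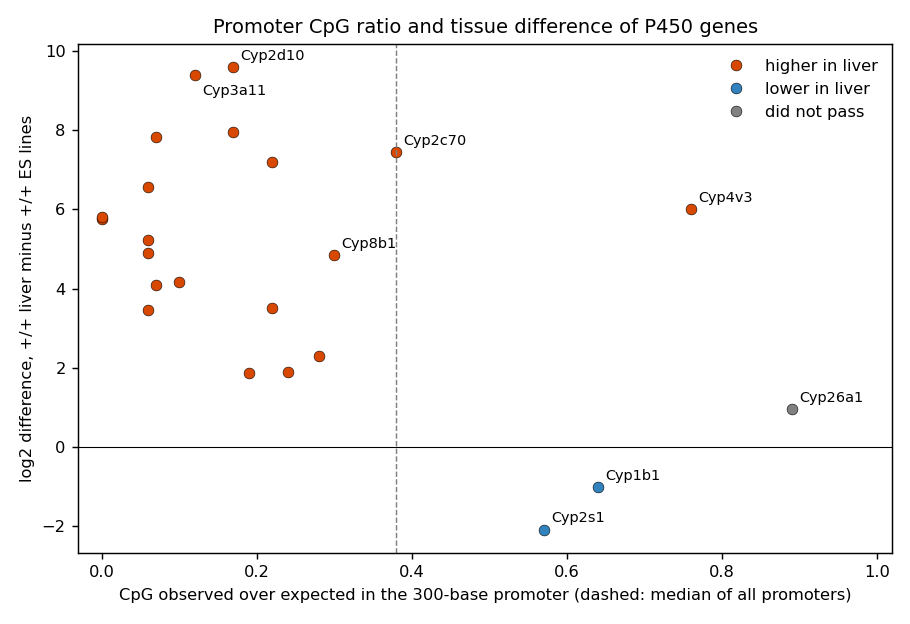
CpG observed over expected in the 300-base promoter (x axis) against the log2 difference between +/+ liver and the mean of both +/+ ES lines (y axis) for tested P450 genes with a promoter; each point is 1 gene, coloured by its call, and the dashed line is the median of all promoters, 0.38. Most genes higher in liver sit left of the line, with Cyp4v3 at 0.76, while Cyp2s1 and Cyp1b1, lower in liver, sit at 0.57 and 0.64.

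In gene order, 27 of the 39 members lie in 7 clusters with at most 20 coding genes between neighbours. The largest is on chromosome 7 and holds Cyp2s1, Cyp2b10, Cyp2b13, Cyp2b9, Cyp2b19, Cyp2a12 and Cyp2f2. Members of this cluster had unlike patterns, as Cyp2a12 and Cyp2f2 were high in every liver, Cyp2s1 was higher in ES cells, and Cyp2b9, Cyp2b13 and Cyp2b19 had mean signals under 100 in both. The chromosome 19 cluster holds Cyp26a1, Cyp2c29, Cyp2c39, Cyp2c38 and Cyp2c70, and the chromosome 5 cluster Cyp3a16, Cyp3a11 and Cyp3a25. Near-identical copies are common in the Cyp2 to Cyp4 families and can share probes; 7 of the 39 probe sets carry a mark for possible cross-hybridisation.

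Liver and ES cells separated in most of the family. The lowest of the 4 livers lay above the highest of the 12 ES arrays in 27 of 39 members (69.2%), against 13.3% of all 12422 probe sets. All livers lay below all ES arrays in 1 member, Cyp2s1 (2.56%, against 21.3% of all probe sets). Without the first liver labelled Abca1 +/-, the counts were 28 (15.2% of all probe sets) and 1 (25.1%), with Cyp7a1 as the gene added. The mean signal reached 100 in liver for 29 members and in ES cells for 10, and it stayed under 100 in both for 8.

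**Figure D2:**
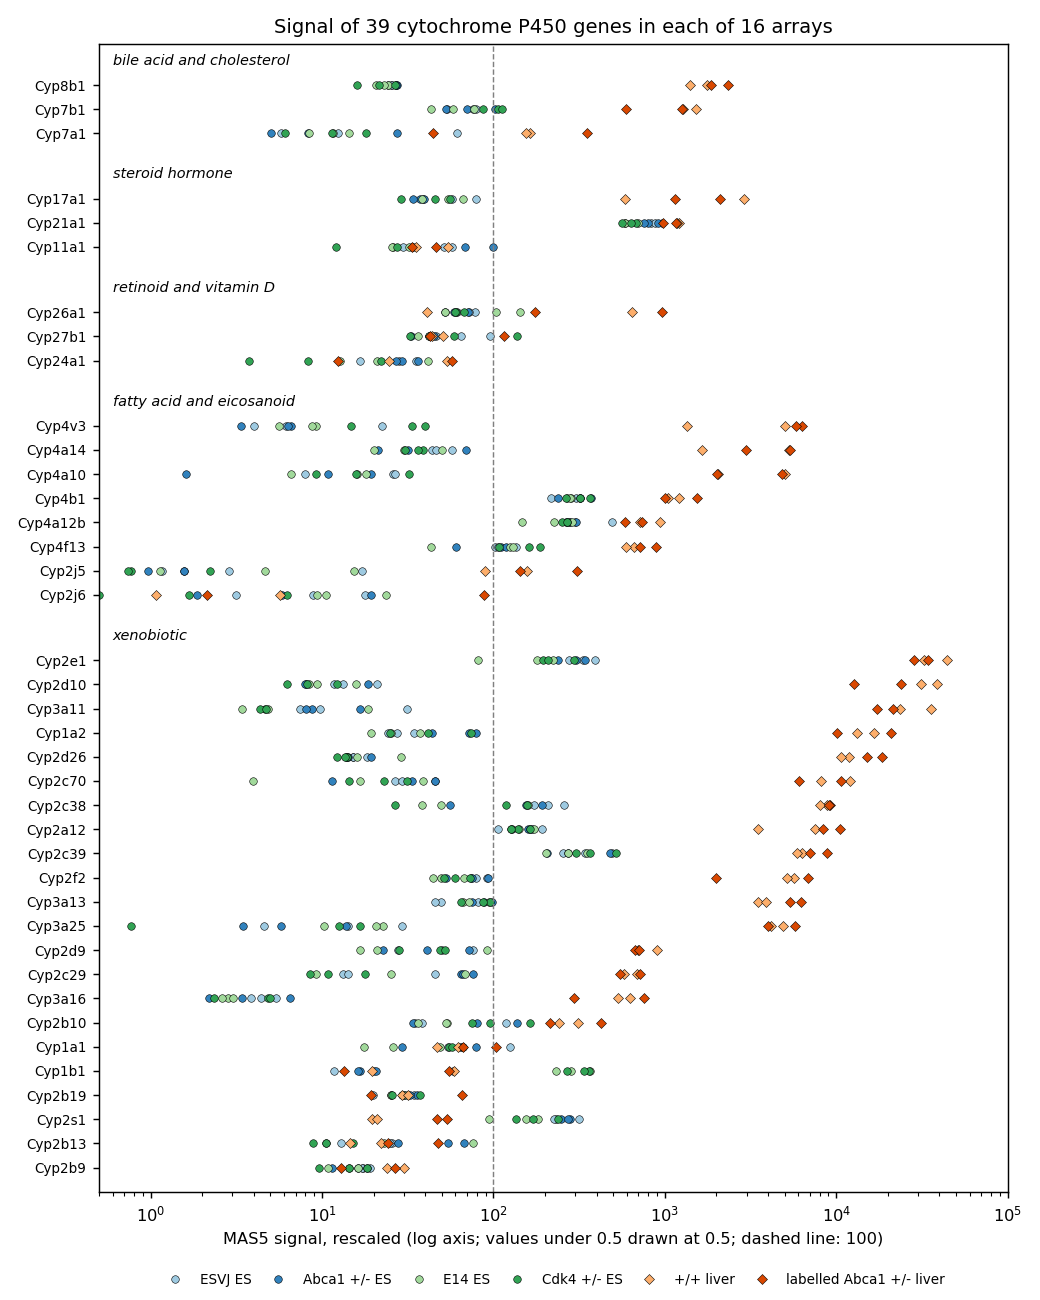
MAS5 signal (x axis, log scale, rescaled to a trimmed mean of 500) of the 39 P450 genes in each of 16 arrays, in the substrate groups assigned by family or subfamily. Circles are ES arrays, diamonds are livers, colours give the 6 groups, and the dashed line marks 100. The liver diamonds lie to the right of every ES circle in 27 genes and to the left of every one in Cyp2s1; distances between genes have no meaning, since each gene has its own probe set.

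The difference itself was tested between the +/+ livers and the mean of both +/+ ES lines, ESVJ and E14, over 8 arrays, on log2(signal + 32), with limma and Benjamini-Hochberg adjustment over all 7802 probe sets that reached a mean of 100; "passed" means an adjusted p under 0.05. Of the 39 members 29 were tested, 26 passed as higher in liver, 2 as lower and 1, Cyp26a1, did not pass. Among all probe sets 26.9% passed as higher and 48.9% as lower. The count is a description, because 19 of the 29 reached the filter through the livers alone, which favours a higher liver signal. Cyp26a1 was among them and still did not pass. Over all probe sets the median difference was -0.43, or -0.13 with quantile normalization. The fit took a shared spread from livers and ES arrays, so the SEs given for the tissue difference may understate the spread of the livers. In whole tissue, fewer cells of a type and less RNA per cell cannot be told apart.

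Among the enzymes of foreign compounds, Cyp2d10, a member of the debrisoquine hydroxylase family, had signals of 31061 and 38579 in the +/+ livers and of 12627 and 23894 in the livers labelled Abca1 +/-. Its 12 ES arrays lay between 6.26 and 20.9 with a median of 10.6. The liver excess was 9.59 on the log2 scale (SE 0.20, adjusted p = 7.19e-13). Another Cyp2d10 probe set gave 8.77 (SE 0.20). Its neighbour Cyp2d26 had 11894, 10620, 18404 and 15044 in the 4 livers, in the order +/+ 1, +/+ 2, labelled Abca1 +/- 1 and 2, which is used from here on, and 12.2 to 28.7 in ES cells. That difference was 7.83 (SE 0.20, adjusted p = 2.7e-12). The third member of the cluster, Cyp2d9, a testosterone hydroxylase typical of male liver, had 897, 697, 668 and 707 in the livers and at most 91.3 in ES cells.

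Cyp3a11, the main mouse counterpart of the human drug enzyme CYP3A4, read 23507, 35771, 17409 and 21376 in the livers and 3.43 to 31.3 in ES cells. It differed by 9.38 (SE 0.26, adjusted p = 4.23e-12). Cyp3a25 read 4176, 4920, 3981 and 5731, with 0.766 to 29.2 in ES cells, and differed by 6.56 (SE 0.25, adjusted p = 7.03e-11). Cyp3a13, the form of the family also found in the gut, read 3496, 3912, 6266 and 5403 against 45.9 to 97.6 and differed by 5.24 (SE 0.21, adjusted p = 1.35e-10). In all 3 the livers and ES arrays did not overlap. Cyp3a16, known as a fetal form of the family, read 628, 533, 297 and 751 in the livers and 2.2 to 6.5 in ES cells, again with no overlap.

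Cyp1a2, which oxidises caffeine and arylamines, read 16591, 13153, 10071 and 20836 in the livers and 19.2 to 79.1 in ES cells, a difference of 7.96 (SE 0.20, adjusted p = 2.47e-12). Cyp2e1, the ethanol-oxidising form of pericentral hepatocytes, read 32542, 44197, 34433 and 28312 against 81 to 391 and differed by 7.20 (SE 0.26, adjusted p = 5.21e-11). Cyp2c70, which makes the muricholic acids of mouse bile, read 8163, 11993, 6032 and 10679 against 3.96 to 45.7 and differed by 7.44 (SE 0.27, adjusted p = 4.89e-11). These 3 genes had no ES array near any liver. Cyp2f2, an enzyme of naphthalene metabolism in lung and liver, read 5698, 5184, 1986 and 6855 against 44.5 to 93.3 and differed by 5.80 (SE 0.19, adjusted p = 1.82e-11). Cyp1a1, the classic target of the aryl hydrocarbon receptor, read 47.1 to 103 in the livers and 17.6 to 125 in ES cells, so the tissues overlapped.

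The remaining enzymes of foreign compounds that passed as higher in liver were Cyp2a12, Cyp2b10, Cyp2c29, Cyp2c38, Cyp2c39, Cyp2d9 and Cyp3a16, with differences from 1.87 in Cyp2b10 to 5.75 in Cyp2c38. Cyp2b10, the CAR target that phenobarbital induces, read 242, 313, 424 and 214 in the livers. Its ES arrays lay between 34 and 163, so the lowest liver stood near the highest ES array. Cyp2b9 and Cyp2b13, forms known from female liver, and Cyp2b19, a form of skin, had no liver above 65.6.

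Of the bile acid enzymes, Cyp8b1, the sterol hydroxylase that makes cholic acid, read 1753, 1395, 1858 and 2347 in the livers and 15.9 to 27.2 in ES cells, a difference of 4.84 (SE 0.22, adjusted p = 3.52e-10). Cyp7b1, which hydroxylates oxysterols, read 1276, 1511, 597 and 1252 against 43.3 to 112, and differed by 3.89 (SE 0.22, adjusted p = 3.37e-09). Cyp7a1, the rate-limiting enzyme of bile acid synthesis, read 164, 155, 44.2 and 351 against 5.06 to 61.1. Its lowest liver, the first labelled Abca1 +/-, fell within the ES range, and its mean signal was too low for the test.

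In the retinoid and vitamin D group the tissues overlapped in all 3 members. Cyp26a1 had a tissue difference of 0.97 (SE 0.59, adjusted p = 0.151), with livers on both sides of the ES range as described below. Cyp24a1, which inactivates vitamin D, read 12.4 to 57.6 in the livers and 3.73 to 41.3 in ES cells. Cyp27b1, the kidney enzyme that activates it, read 42.9 to 116 and 32.7 to 137.

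Among the fatty acid enzymes, Cyp4a10 and Cyp4a14, omega-hydroxylases that PPARalpha induces, read 5054, 2037, 2019 and 4856, and 5294, 1655, 2967 and 5374. Their ES arrays stayed at or under 32.1 and 68.9, and the differences were 6.07 (SE 0.32) and 5.38 (SE 0.35). Cyp4v3, a fatty acid omega-hydroxylase, read 5016, 1352, 6318 and 5832 against 3.36 to 40, with a difference of 6.01 (SE 0.39, adjusted p = 1.18e-08). Cyp4a12b, Cyp4b1 and Cyp4f13 had ES signals of 100 or more on average and smaller differences, of 1.48, 1.90 and 2.29, which passed. Cyp2j5, an arachidonic acid epoxygenase, read 88.8 to 309 in the livers and at most 17.1 in ES cells. Its neighbour Cyp2j6 read 88.6 in the first liver labelled Abca1 +/- and at most 5.66 in the other 3.

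Of the steroid enzymes, Cyp17a1, the hydroxylase and lyase of androgen synthesis, read 2884, 585, 1141 and 2108 in the livers and at most 79.5 in ES cells, a difference of 3.95 (SE 0.43, adjusted p = 2.19e-06). A second probe set of Cyp17a1 did not separate the tissues, with at most 22.4 in the livers and at most 30.5 in ES cells. Cyp21a1, the steroid hydroxylase of the adrenal cortex, read 1204, 1175, 1168 and 970 against 565 to 969, so the tissues touched, and it passed with a difference of 0.65 (SE 0.15, adjusted p = 0.00115). Its probe set is marked as matching more than 1 transcript. Cyp11a1, the mitochondrial enzyme that opens steroid synthesis from cholesterol, read 33.6 to 54.1 in the livers and 12 to 100 in ES cells.

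Both members that passed as lower in liver belong to the enzymes of foreign compounds. Cyp2s1 read 19.5, 21, 46.9 and 53.5 in the livers. In ES cells it read 232, 227 and 315 in ESVJ, 154, 94.2 and 181 in E14, 247, 278 and 273 in Abca1 +/- and 171, 237 and 135 in Cdk4 +/- cells. The fall in liver was -2.08 (SE 0.25, adjusted p = 5.02e-06). Cyp1b1 read 58.5, 19.6, 54.7 and 13.5 in the livers, and its difference was -1.01 (SE 0.33, adjusted p = 0.0127). That value joins unlike ES lines, since Cyp1b1 was at the level of the livers in ESVJ and higher in E14: against ESVJ alone the difference was 0.21 (adjusted p = 0.617). The adjusted p was also 0.188 without the second +/+ liver, and Cyp1b1 was not called without the third E14 array. The second probe set of Cyp1b1 was dim in both tissues, at 28.9, 1.37, 14.1 and 2.2 in the livers and at most 4.56 in ES cells, and did not show a lower liver signal.

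The genes that work with P450 enzymes were compared the same way, by lists chosen with earlier results of these data known. All 5 tested redox partners of 7 listed passed as higher in liver, among them Cyb5a, the cytochrome that passes the second electron to many P450 enzymes, by 3.41 (SE 0.19), Fdx1, the mitochondrial ferredoxin, by 3.29 (SE 0.15), and Pgrmc1, a heme-binding partner, by 4.03 (SE 0.18). Of 9 tested genes of heme synthesis and breakdown, 7 passed as higher and 0 as lower, with Alas1, the first enzyme of heme synthesis, at 3.29 (SE 0.18) and Alad, the next, at 3.47 (SE 0.13). Of 17 tested regulators, 12 were higher and 2 lower, Rara and Rarg, the retinoic acid receptors, at -2.61 (SE 0.25) and -2.86 (SE 0.32). Hnf4a differed by 3.90 (SE 0.27), Nr1i3, which encodes CAR, by 3.63 (SE 0.19), and Cebpa by 3.51 (SE 0.15). All 18 tested PPARalpha targets and all 9 tested genes of bile acid transport and conjugation were higher. These counts are descriptions too, since 4 of the 18, 5 of the 9 and 6 of the 17 regulators had ES means under 100 and were tested through their liver signal, and 26.9% of all probe sets passed as higher.

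Single livers differed from each other in several members, within both groups. Among the 29 members with a mean liver signal of at least 100, the highest liver was at least 2-fold above the lowest in 14 (48.3%, against 52.3% of 7160 probe sets), at least 4-fold in 4 (13.8%, against 13%) and at least 10-fold in 1 (3.45%, against 2.22%). The median ratio was 1.99 in the members and 2.05 in all probe sets. Without the first liver labelled Abca1 +/-, 8 of 29 members were past 2-fold (27.6%, against 24% of 6904), and the median ratio was 1.55 in both. The ratios of the P450 genes were thus close to those of the whole array. Of the members 20 had a mean liver signal of at least 1000, and no comparison with probe sets of like signal was made.

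The widest ratio was that of Cyp26a1, at 23.6, with 41.1 in the first +/+ liver, 644 in the second, and 968 and 174 in those labelled Abca1 +/-. The first +/+ liver lay below all 12 ES arrays, which ranged from 52.2 to 142, and the second was above them. Dhrs3, a retinaldehyde reductase that retinoic acid induces, read 922, 847, 1789 and 1689 in the livers. The part of retinoic acid in the Cyp26a1 spread was not tested. Cyp7a1 had a ratio of 7.93, with its lowest value in the first and its highest in the second liver labelled Abca1 +/-. Cyp7a1 follows a daily rhythm under the clock output factor Dbp, which read 12.4, 63.3, 61.2 and 328 in the livers. Dbp was thus lowest in the first +/+ liver, where Cyp7a1 read 164. Of 12 clock and clock output genes with a mean liver signal of at least 100, 9 were highest in the first liver labelled Abca1 +/-. That is the liver where Cyp7a1 was lowest, and 1 of the 12 was lowest there. The labels give no time of day, and the part of the clock was not tested.

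Cyp17a1 (ratio 4.93), Cyp4a14 and Cyp4a10 shared a pattern. In each, the first +/+ liver and the second labelled Abca1 +/- were high and the other 2 low, so that the spread ran within both groups. The same pattern, both of these livers above both others, was present in 10 of 29 members (34.5%, against 9.32% of all probe sets): besides these, Cyp1a2, Cyp2c29, Cyp2d9, Cyp2f2, Cyp2j5, Cyp3a16 and Cyp7a1. It was looked for because it had been seen in these data, so the count is a description. Of 18 PPARalpha targets with a mean liver signal of at least 100, 6 had it, among them Ehhadh, an enzyme of peroxisomal fatty acid oxidation, at 1233, 674, 479 and 1144, and Acadm, of mitochondrial fatty acid oxidation, at 11330, 5503, 4479 and 7826. Others did not, such as Fabp1, the liver fatty acid binding protein, at 26509, 37463, 29480 and 22296. Cyp4v3 (ratio 4.67) and Cyp2a12, a steroid hydroxylase at 7517, 3512, 8404 and 10459, were low in the second +/+ liver alone. Cyp2j5, at 156, 88.8, 142 and 309, was low there too and high in the second liver labelled Abca1 +/-. Cyp2f2, Cyp2d10 and Cyp3a16 were lowest in the first liver labelled Abca1 +/-, the one with the high Saa2 signal. For Cyp2d10 this did not hold in its other probe set, which read 15795, 19676, 15529 and 14224 and was lowest in the second liver labelled Abca1 +/-.

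**Figure D3:**
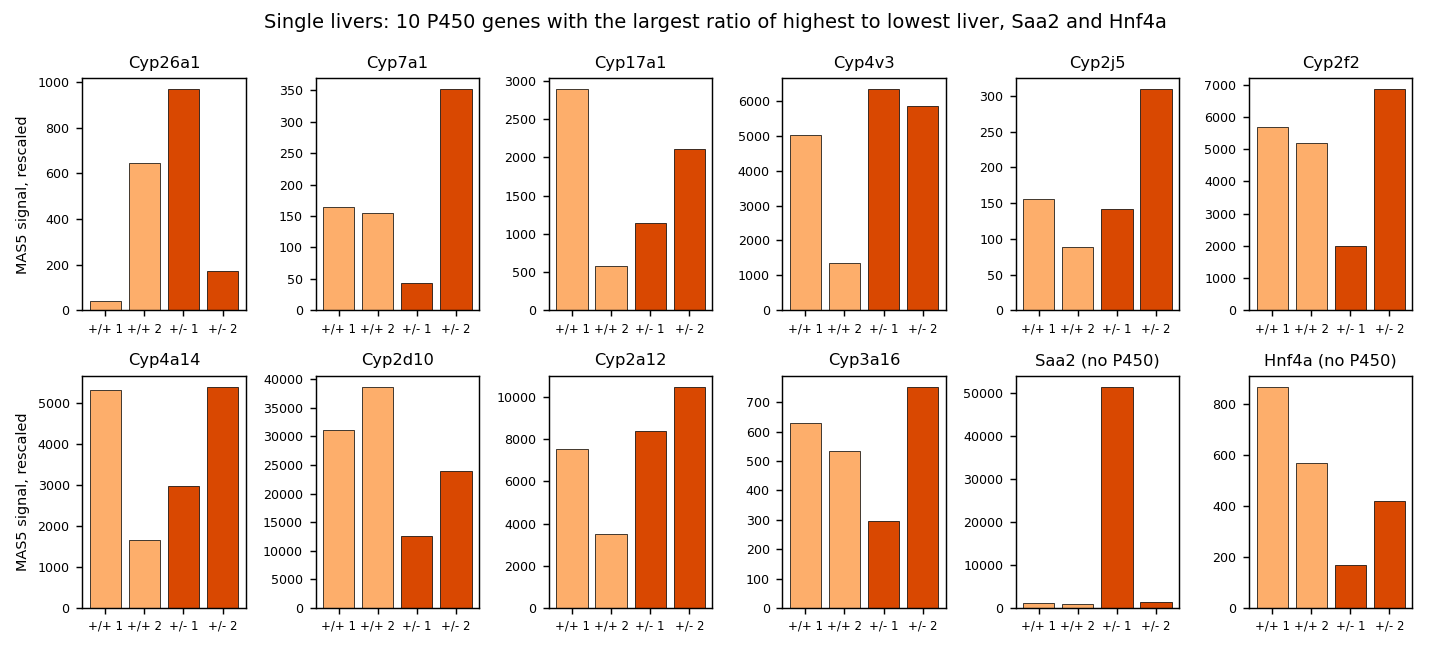
MAS5 signal (y axis, linear, rescaled) in each of the 4 livers for the 10 P450 genes with the largest ratio of highest to lowest liver, and for Saa2 and Hnf4a, which are no P450 genes; each bar is 1 liver, light for +/+ and dark for those labelled Abca1 +/-. Cyp26a1 runs from 41.1 to 968, and Saa2 reaches 51423 in the first liver labelled Abca1 +/-.

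A liver was counted as extreme for a gene where it lay at least 1.5-fold beyond the next, a rule chosen after the values were seen. The second +/+ liver was the low extreme for 5 of 29 members (17.2%, against 7.58% of all probe sets): Cyp17a1, Cyp2a12, Cyp2j5, Cyp4a14 and Cyp4v3. The first liver labelled Abca1 +/- was the low extreme for 5 (17.2%, against 12.1%), Cyp2d10, Cyp2f2, Cyp3a16, Cyp7a1 and Cyp7b1, and the high extreme for 1, Cyp26a1 (3.45%, against 16.8%). In the other probe set of Cyp2d10 this liver was not the lowest. The second liver labelled Abca1 +/- was the high extreme for Cyp2j5 and Cyp7a1 (6.9%, against 1.93%). The first +/+ liver was the low extreme for Cyp26a1 alone (3.45%, against 3.1%) and the high extreme for 0 members (1.09% of all probe sets), and the second +/+ liver the high extreme for Cyp3a11 alone (3.45%, against 3.14%). Of 19 regulators with a mean liver signal of at least 100, the first liver labelled Abca1 +/- was lowest in 4 and highest in 7. Hnf4a read 867, 569, 170 and 421 and Nr1i3 3443, 4723, 1712 and 2570, while Cebpa read 4850, 4321, 13174 and 7933 and Foxa3, a forkhead factor of hepatocytes, 442, 379, 1098 and 738. Their part in the P450 values was not tested.

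Several P450 genes are known to differ between male and female livers, and the labels give no sex. Cyp2d9 and Cyp4a12b, forms of male liver, read 668 to 897 and 586 to 932, while Cyp2b9 and Cyp2b13, forms of female liver, read 12.9 to 30.2 and 14.5 to 47.6. Other genes known from female liver were brighter, Hao2 at 1838, 1590, 858 and 3465 and Cyp3a16 at the values given above, and Elovl3, known from male liver, read 7.43 to 22.6. Xist, the RNA of the inactive X chromosome, read 144, 76.5, 113 and 992, and the Y-linked Eif2s3y 47.9, 21.9, 56.8 and 22.3 in the livers against 326 to 575 in ES cells. Hsd3b5, a gene of male liver, read 474, 2113, 125 and 190. The markers gave no single reading for the 4 livers, and the part of sex in the spread was not tested.

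Between the liver groups, no P450 gene passed. Of the 29 members tested, 0 were called in either direction by limma over 7160 probe sets and 2 against 2 livers, and among all probe sets 0.014% passed as higher and 0% as lower. At an unadjusted p under 0.05 stood 2 members, against 18.4% of all probe sets. The median difference was 0.08 in the members and 0.11 over all probe sets, which quantile normalization moved to -0.03. With 2 residual degrees of freedom the test is coarse. The 95% interval of a difference, without adjustment, reached 0.85 to each side in the median probe set. Differences up to about that size could not be told from 0. After adjustment larger ones did not pass either, as Cyp4v3 at 1.21 had an adjusted p of 0.262. Leaving out the first liver labelled Abca1 +/- also gave 0 calls in both directions.

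The members with the smallest unadjusted p had adjusted p-values from 0.214 to 0.585. Cyp2d10 was at -0.99 (95% interval -1.84 to -0.15), but its second probe set read 15795, 19676, 15529 and 14224, a difference of -0.25. Cyp4v3 was at 1.21 (0.03 to 2.39), where the first +/+ liver lay near the livers labelled Abca1 +/-. Cyp2a12 was at 0.86 (-0.05 to 1.77), Cyp3a13 at 0.65 (-0.08 to 1.38) and Cyp2d26 at 0.56 (-0.15 to 1.28). Both livers labelled Abca1 +/- lay above both +/+ livers in 8 of the 29 members (27.6%, against 30.3% of all probe sets), Cyp2a12, Cyp2c38, Cyp2c39, Cyp2d26, Cyp3a13, Cyp4f13, Cyp4v3 and Cyp8b1, and below them in 4 (13.8%, against 21.4%), Cyp21a1, Cyp2d10, Cyp3a11 and Cyp7b1. Cyp3a11 was at -0.59 (-1.36 to 0.18), Cyp7b1 at -0.66 (-1.56 to 0.23), Cyp2j5 at 0.69 (-0.36 to 1.73), Cyp8b1 at 0.41 (-0.35 to 1.17) and Cyp2c39 at 0.37 (-0.36 to 1.10). Without the first liver labelled Abca1 +/- Cyp7b1 was at -0.15, Cyp2d10 at -0.53, Cyp2j5 at 1.18 and Cyp2c39 at 0.21. The second probe set of Cyp7b1 read 841, 1304, 236 and 1109, and there that liver alone was below both +/+ livers. Cyp4v3 rested on the second +/+ liver, and was at 0.27 without it. Calls appeared when other single livers were left out, in fits that leave 1 array in a group and take its spread from the other group: Cyp4v3 reached 2.14 (adjusted p = 0.0405) without the first +/+ liver, Cyp26a1 2.64 (adjusted p = 0.0217) without the second +/+ liver, and Cyp2f2, Cyp2d10 and Cyp7b1 passed as lower without the second liver labelled Abca1 +/-, which leaves the one with high Saa2 as its group.

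**Figure D4:**
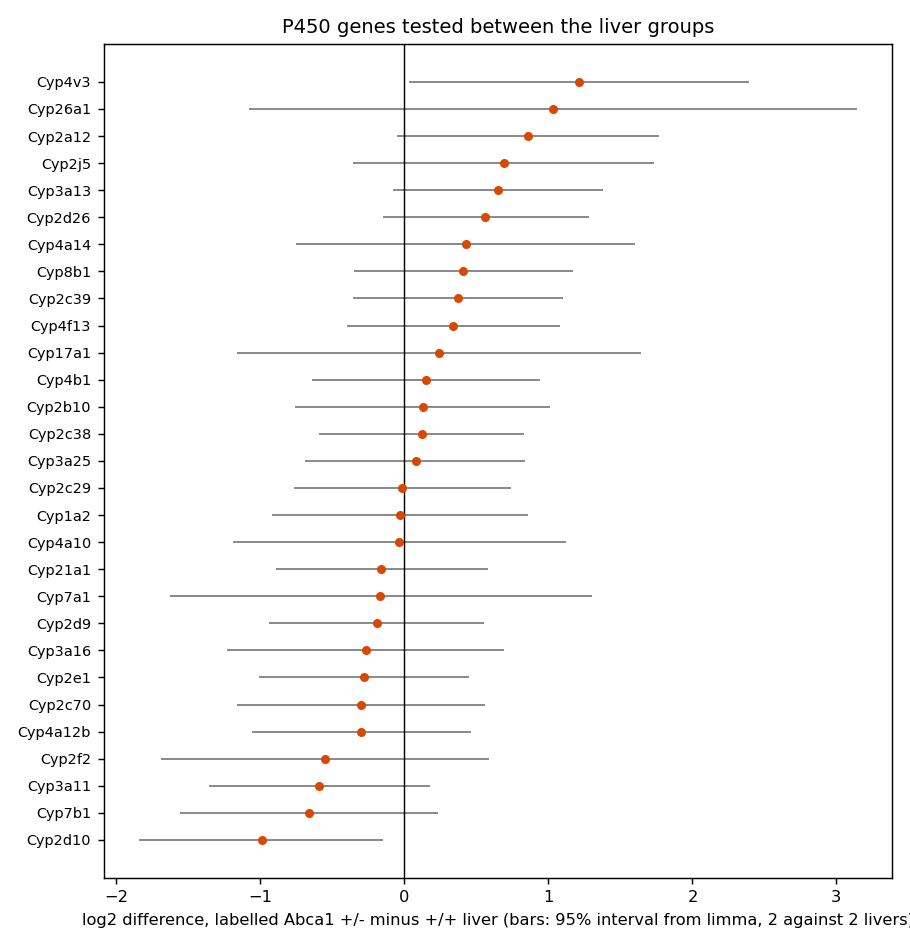
Log2 difference of signal, livers labelled Abca1 +/- minus +/+ livers (x axis), for the 29 tested P450 genes (y axis); points are limma estimates from 2 against 2 livers and bars are 95% intervals. The estimates run from -0.99 in Cyp2d10 to 1.21 in Cyp4v3, the bars of these genes alone leave out 0, and no gene passed after adjustment.

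The lists of partners, heme genes and regulators gave 0 calls between the liver groups as well. The regulator with the smallest p was Cebpb, a factor of the acute phase, at 1072, 867, 3238 and 3710, a difference of 1.81 (SE 0.33, adjusted p = 0.101). In the heme list it was Urod at 1979, 2303, 586 and 1155, a difference of -1.34 (SE 0.39, adjusted p = 0.141). The 8 Kupffer cell and macrophage markers summed to 4245 and 5641 in the +/+ livers and to 8491 and 5523 in those labelled Abca1 +/-, and the 7 measured hepatocyte markers to 169834 and 206254 against 205780 and 156432. Their part in the P450 values was not tested.

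In ES cells 10 members reached a mean of 100: Cyp4a12b, Cyp4b1, Cyp4f13, Cyp21a1, Cyp1b1, Cyp2a12, Cyp2c38, Cyp2c39, Cyp2e1 and Cyp2s1. The 4 ES groups were fitted together over 7349 probe sets. Between Abca1 +/- cells and ESVJ, 0 of the 10 were called in either direction and 0 stood at an unadjusted p under 0.05 (3.28% of all), while 0.0136% of all probe sets passed in each direction. The largest difference was that of Cyp2c38, with 193, 155 and 55.5 against 207, 257 and 173, at -0.65 (95% interval -1.61 to 0.32, adjusted p = 0.9997). The narrowest interval was that of Cyp21a1, -0.40 to 0.16. The other 8 members lay between -0.27 (Cyp4a12b) and 0.20 (Cyp2a12), and every adjusted p was 0.9997. Cdk4 +/- cells likewise had 0 of 10 members called against E14, and 0 at an unadjusted p under 0.05, where 2.59% of all probe sets passed as higher and 2.33% as lower. The smallest adjusted p there was that of Cyp2e1, with 194, 295 and 208 in Cdk4 +/- and 223, 81 and 180 in E14 cells, a difference of 0.51 (SE 0.26, adjusted p = 0.288). Cyp4f13 followed at 0.54 (SE 0.30) and Cyp2c39 at 0.48 (SE 0.29), and the other 7 members lay between -0.03 (Cyp2a12) and 0.29 (Cyp2s1). The 95% intervals, without adjustment, reached 0.37 to each side in the median probe set, so differences of that size could not be told from 0. After adjustment larger ones can be missed too. Among the surrounding genes Alad fell in Cdk4 +/- cells, by 0.63 on the log2 scale (SE 0.14, adjusted p = 0.0197), and was the only one of 9 tested heme genes to pass.

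The +/+ lines differed from each other in 6 of these 10 members. E14 exceeded ESVJ in Cyp1b1 (19.8% of all probe sets passed as higher) and was lower in Cyp21a1, Cyp2e1, Cyp2s1, Cyp4a12b and Cyp2c38 (22.8% as lower). Line, feeder culture and RNA extraction change together between E14 and ESVJ and cannot be told apart. Beside this difference, all 8 ES markers passed as lower in E14, the summed signal of the 3 measured bile duct markers was 3844 to 4178 in E14 and 431 to 644 in ESVJ, and that of the 8 measured stellate and fibroblast markers 2193 to 2349 against 2018 to 2264; their part in the P450 values was not tested. The members' shares were 10% higher and 50% lower, over 10 genes that entered this test because of their level in ES cells.

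Cyp1b1 read 58.1, 11.8 and 20.1 in ESVJ and 231, 282 and 368 in E14, a difference of 2.44 (SE 0.26, adjusted p = 3.62e-06). The mutant lines kept to their controls, with 20.7, 16.6 and 16.3 in Abca1 +/- and 361, 337 and 269 in Cdk4 +/- cells, so that the 6 feeder-free arrays lay above the 6 others. The dim second probe set of Cyp1b1 did not show the rise, with 0.5, 1.37 and 1.53 in ESVJ and 0.167, 0.333 and 0.566 in E14. Ahr, the aryl hydrocarbon receptor that is known to switch on Cyp1b1, was also higher in E14, at 215 ± 61.2 (SD, n = 3) against 43.1 ± 25.7, a difference of 1.76 (SE 0.28, adjusted p = 0.000174). Its partner Arnt was lower, by -0.82 (SE 0.15, adjusted p = 0.000644). Cyp1a1, the other classic target of the receptor, went the other way, with 48.7, 25.9 and 17.6 in E14 and 54.2, 63.7 and 125 in ESVJ. Each E14 array thus lay below each ESVJ array. Its other probe set had 37.4, 142 and 51.4 against 36.5, 9.96 and 88.9, where the lines overlapped. Both probe sets were under the filter in ES cells. The part of the receptor in the Cyp1b1 difference was not tested. The dioxin response core, TNGCGTG on either strand, was in the 300-base promoter of 0 of 31 members and of 5.07% of all promoters, which says nothing about sites further away.

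Cyp21a1 fell from 829, 875 and 969 in ESVJ to 587, 587 and 701 in E14, a difference of -0.49 (SE 0.13, adjusted p = 0.00717), and the groups did not overlap. Cyp2e1 fell by 0.99 on the log2 scale (SE 0.26, adjusted p = 0.00745), from 276, 335 and 391 to 223, 81 and 180. Cyp2s1 differed by -0.75 (SE 0.22, adjusted p = 0.0142), with the values given above for both lines, which did not overlap either. The other calls were weaker. Cyp4a12b had 301, 277 and 494 against 225, 146 and 286 (-0.63, SE 0.22, adjusted p = 0.0328), and Cyp2c38 207, 257 and 173 against 49.5, 38.4 and 159 (-1.23, SE 0.45, adjusted p = 0.0404). Without the third ESVJ array or the second E14 array, Cyp21a1 and Cyp2e1 alone remained called as lower; without the first E14 array these and Cyp2s1 did. The 4 members that did not pass were Cyp2c39, Cyp4f13, Cyp2a12 and Cyp4b1, with differences from -0.34 to 0.06.

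**Figure D5:**
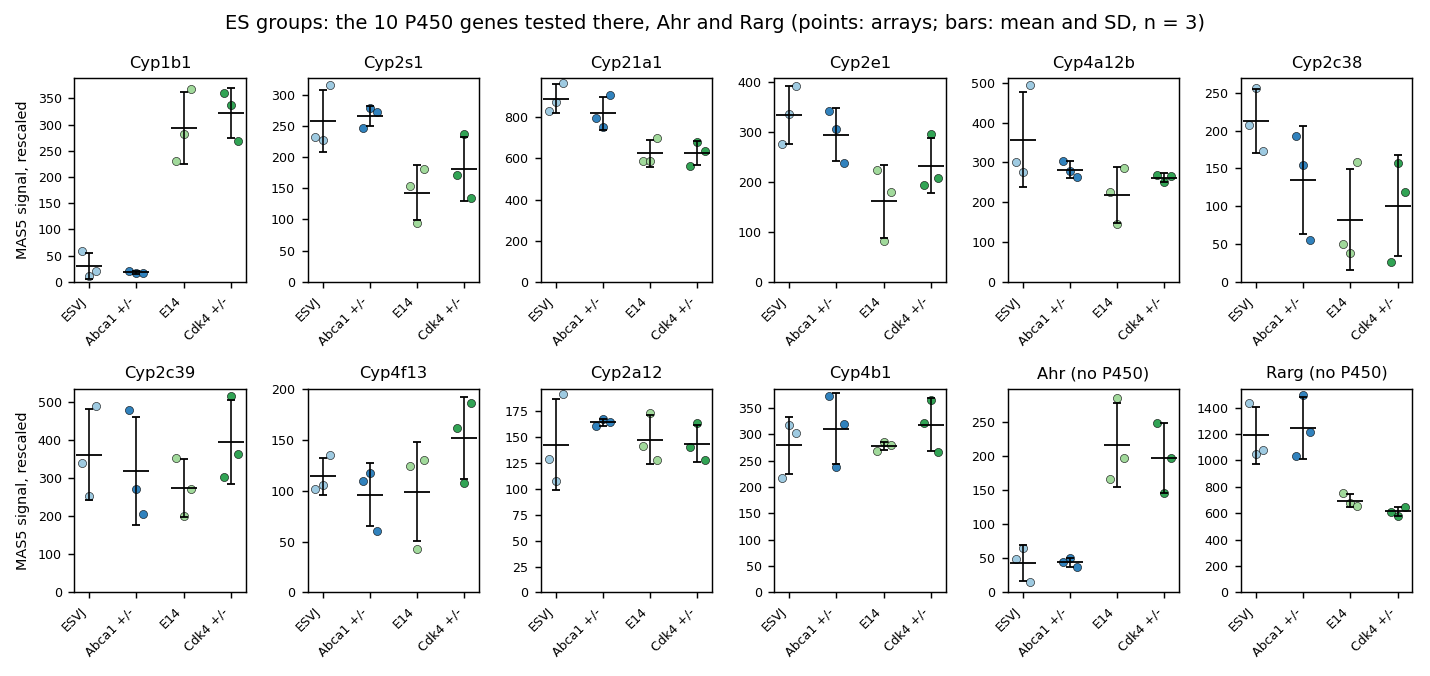
MAS5 signal (y axis, linear, rescaled) of the 10 P450 genes tested in ES cells, and of Ahr and Rarg, which are no P450 genes, in the 4 ES groups (x axis); points are arrays and bars the mean and SD of 3. Cyp1b1 and Ahr are high in E14 and Cdk4 +/- cells, with Cyp1b1 between 231 and 368, and low in ESVJ and Abca1 +/- cells.

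Among the genes around the family, 7 of 10 tested regulators differed between E14 and ESVJ, 2 higher (Ahr and Cebpb) and 5 lower. Of all probe sets, 19.8% passed as higher and 22.8% as lower, so the share of regulators called higher was near that of the array. Rara fell by 1.13 (SE 0.24) and Rarg by 0.74 (SE 0.15) on the log2 scale, and Crabp1, which binds retinoic acid in the cytoplasm, by 1.16 (SE 0.21). Of 5 tested genes of retinoid handling, 3 passed as lower, 1 as higher and 1 did not pass. Cyp26a1, the retinoid target among the members, was under the filter in ES cells, at 78.1, 71.7 and 61.1 in ESVJ and 104, 142 and 52.4 in E14. Hmox1, the heme oxygenase that degrades heme, differed by -1.97 (SE 0.44, adjusted p = 0.00217), and of the redox partners Cyb5r3 was higher by 1.34 (SE 0.12) and Pgrmc1 by 0.75 (SE 0.16).

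Whether the Abca1 label went with another difference in liver than in ES cells was tested over the Abca1 +/- and ESVJ cells and all livers. In that test 0 of 28 tested members were called, where 2.02% of 7883 probe sets passed as higher and 0.368% as lower. At an unadjusted p under 0.05 stood 3 members: Cyp4v3 at 1.38 (SE 0.59), Cyp2d10 at -0.87 (SE 0.37) and Cyp2c29 at -0.90 (SE 0.40), with adjusted p-values of 0.193, 0.193 and 0.206. Without the second liver labelled Abca1 +/-, which leaves 1 in that group, 4 members were called as lower (Cyp2f2, Cyp2d10, Cyp1a2 and Cyp7b1), and without the first +/+ liver Cyp4v3 was called as higher. Without the first liver labelled Abca1 +/- none was called. Among 20 tested regulators Cebpb alone passed, at 1.70 (SE 0.35, adjusted p = 0.0334). This fit took a shared spread from livers and ES arrays, and in the fit of the livers alone Cebpb did not pass, as given above.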

How the data were processed

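Per the labels, the authors hybridised RNA of each sample to 1 U74Av2 array and processed it with MAS5.0 at its defaults. The deposited values are the linear signal intensity of 12488 probe sets, with a 2% trimmed mean of 1501 or 1502 in every array; detection calls were not used here. Genes were named from the platform annotation (10855 probe sets with 1 gene, 396 with several, 1237 with none), and all 39 member symbols were the same in the RefSeq table. Signals were rescaled to a trimmed mean of 500, a pseudocount of 32 was added and log2 taken. The tests took probe sets whose mean in the arrays fitted reached 100, with limma 3.58.1 in R 4.3.3 (empirical Bayes with an intensity trend), with Benjamini-Hochberg adjustment and a threshold of 0.05; fold changes are on the log2(signal + 32) scale and understate those of dim genes. The number of arrays limits the precision. The fits were checked on simulated data.

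The members and lists were chosen with earlier results of these data known. Full values are given for members that passed, up to 10 with the smallest p in each direction, for the 10 with the smallest p where fewer than 5 passed, and for the 10 with the largest ratio between livers; other genes are up to 4 per list with the smallest p, besides those set beside a member after their values were seen, and the labelled genes Abca1 and Cdk4. Alternatives were scale, normalization, pseudocount, filter, trend, marked probe sets, the mean of probe sets, the arrays in the fit and each array left out. Promoters came from RefSeq's GRCm38.p6 table. The liver-extreme rule, the liver pattern counts and leaving the first liver labelled Abca1 +/- out of the counts between livers were chosen after seeing the data.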

Additional observations from a re-analysis of the deposited data

How the results depend on the processing

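No paired analysis was possible because the labels give no replicate numbers. Other settings (the deposited scale, quantile normalization, pseudocounts, filters, no trend, marked probe sets left out, the mean of a gene's probe sets, other sets of arrays) left 125 counts of P450 genes within 1.5 times the reported one and moved 7. The exceptions follow, and the cause was not tested except where fewer genes were tested. A fit of all 16 arrays called 2 members higher and 1 lower between the livers: Cyp2a12 (adjusted p = 0.0398), Cyp4v3 (adjusted p = 0.0442) and Cyp2d10 (adjusted p = 0.015). That fit takes its spread from the ES arrays as well, with an SE of 0.27 for Cyp2d10 against 0.38 in the fit of the livers alone. In liver against ES cells the count of lower members was 1 with a pseudocount of 1, 0 with a filter of 200, which Cyp2s1 and Cyp1b1 do not reach, and 1 against ESVJ only, where Cyp1b1 turned to 0.21. In E14 against ESVJ the filter of 200 left 0 higher members, and leaving out marked probe sets, which removes Cyp21a1 and Cyp2c38, left 3 lower. Cyp2c38 also missed the threshold with quantile normalization (adjusted p = 0.0509), a pseudocount of 1 (0.0554) and no filter (0.07), and Cyp4a12b with no filter (0.0575) or a fit of both lines alone (0.0707). With no filter Cyp1a1 was tested as well and was called as lower in E14 (-0.83, adjusted p = 0.0459). Quantile normalization gave 0.00 for Cyp21a1 in Cdk4 +/- cells.

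With each array left out in turn, the counts ranged from 0 to 1 higher and 0 to 3 lower between the livers, 24 to 26 higher and 1 to 2 lower in liver against ES cells, 2 to 5 lower in E14 against ESVJ, and 0 to 1 higher and 0 to 4 lower for the difference of the Abca1 effects. The count of members at least 2-fold apart between livers was 8 without the first liver labelled Abca1 +/-, chosen after seeing the data. Differences that changed sign were all small: in Abca1 +/- cells Cyp4f13 ranged from -0.34 to 0.00, Cyp2c39 from -0.50 to 0.05, Cyp1b1 from -0.46 to 0.06, Cyp4b1 from -0.02 to 0.29 and Cyp2s1 from -0.02 to 0.19; in Cdk4 +/- cells Cyp21a1 ranged from -0.05 to 0.09, Cyp1b1 from -0.01 to 0.29, Cyp2c38 from -0.13 to 0.71 and Cyp2a12 from -0.11 to 0.07. Genes with means under 100 were not tested, and the livers limit the precision most, with 2 a group.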
